A study of Mus musculus with 18 samples.

Results

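The 10 genes described here encode the AMPA-type glutamate receptor and proteins bound to it. They are the pore-forming subunits Gria1, Gria2, Gria3 and Gria4, the transmembrane AMPA receptor regulatory proteins (TARPs) Cacng2, Cacng3, Cacng4 and Cacng8, and the cornichon homologues Cnih2 and Cnih3. They were chosen by name, and all 10 were found among the 28852 genes of the table. RNA was sequenced from mouse cerebral cortex, taken 1, 7 and 30 days after birth from animals labelled either Alg13 knockout or wild type. Each of the 6 groups held 3 libraries, 18 in all, and no treatment is named. Alg13 is a subunit of an enzyme of the endoplasmic reticulum that helps build the sugar precursor of protein N-glycans, and the series asks how its loss affects cortical interneurons. No source used here says how the Alg13 gene was altered, whether the deletion is limited to a cell type, or what the strain and sex of the mice were. Nor do the labels say that replicates are different mice, and the p-values then reflect only how far these libraries scatter, in part perhaps for technical reasons.

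AMPA receptors are tetrameric channels that carry most of the fast excitatory current at synapses of the cortex. The Gria2 subunit, once its RNA has been edited, makes the channel nearly impermeable to calcium, and Gria1 is known for its delivery to synapses during plasticity. TARPs and cornichons are auxiliary subunits: they bring receptors out of the endoplasmic reticulum to the surface and slow their closing, and TARPs also anchor them at the postsynaptic density. The values are FPKM, that is fragments per gene scaled to transcript length and to the fragments mapped in the library. They are levels of RNA, not of protein, and they do not separate the flip and flop splice forms or edited from unedited RNA.

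Levels of the Alg13 gene did not check the labels. Its FPKM was 1.04 to 2.57 in the day 1 libraries labelled knockout and 1.93 to 3.27 in those labelled wild type, with a lower mean in knockout (2.04 against 2.67). The means went against the label at day 7 (2.35 in knockout, 1.80 in wild type) and at day 30 (1.45 and 1.00). The groups overlapped on every day, so each genotype direction below rests on the labels. The presence of excitatory neurons was checked with 4 markers (Slc17a7, Slc17a6, Neurod6 and Tbr1), whose summed FPKM was 257 to 532 over the 18 libraries. No library of another brain region was compared, so this sum does not tell cortex from other regions. Total FPKM ranged from 313919 to 394975, 11703 to 12780 genes reached 1 FPKM, and relative depth spanned 0.901 to 1.21. Libraries labelled wild type day 1 replicate 3, knockout day 1 replicate 3 and wild type day 30 replicate 2 held both Xist and Y-linked transcripts. The first of these also held 35800 FPKM of 9 salivary gland genes. These 3 are called the mixed libraries below. Wild type day 1 replicate 2 held 157 FPKM of Xist and 0.0309 of the Y-linked Ddx3y. All other libraries held at least 2.77 FPKM of Ddx3y. Marker sums of other tissues also set libraries apart. Brown fat genes (4) summed to 1897 FPKM in wild type day 1 replicate 3, against at most 2.89 in any other library. Olfactory bulb genes (4) reached 29.0 in knockout day 1 replicate 3 (7.97 and 11.1 in its group) and 21.6 in wild type day 7 replicate 3 (2.36 and 2.61). Striatal genes (5) reached 102 in knockout day 1 replicate 3 (34.4 and 41.0) and 42.8 in knockout day 7 replicate 3 (17.4 and 16.8). Choroid plexus genes (4) reached 139 in that last library (0.526 and 0.450), and spanned 0.449 to 66.9 over the day 1 libraries.

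Promoter sequences, from 250 bases before the transcript start to 50 after it, were taken from RefSeq for 5 of the 10 genes on build GRCm38.p6, which is not the build named for the table. The one shown belongs to Cnih2, which had the highest level of the 10 genes at day 1 and day 7. It lies at chr19:5098472-5098771 (minus strand) and is written 5′ to 3′. Capitals mark every match, on either strand, to the 4 motifs searched.
Cnih2: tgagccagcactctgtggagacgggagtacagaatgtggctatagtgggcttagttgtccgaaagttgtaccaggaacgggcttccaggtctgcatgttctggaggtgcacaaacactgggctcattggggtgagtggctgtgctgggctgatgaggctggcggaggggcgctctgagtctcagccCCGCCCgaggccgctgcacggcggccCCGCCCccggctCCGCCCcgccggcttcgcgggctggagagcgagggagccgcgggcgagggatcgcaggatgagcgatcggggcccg
The motifs were the GC box GGGCGG, a part of the RE1 element (CAGCACC), the cAMP response element core TGACGTC, and the NRF-1 core GCGCANGC, where N is any base. No match overlapped another in this window. The Cnih2 window held 3 GC boxes and none of the other letters searched. Over the 5 windows, the GC box was found in 2, the NRF-1 core in 2, and the other motifs in 0. Of 32851 mouse promoters of the same length, 35.7% held a GC box, 7.14% the RE1 part, 3.21% the cAMP core and 9.95% the NRF-1 core. The Cnih2 window held 25 CpG dinucleotides, against a median of 7 over all promoters. The NRF-1 letters were chosen after the sequences had been seen. A match describes these letters and is not a site.

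In cortex labelled wild type, 6 of the 10 genes were higher at day 7 than at day 1, and none was lower. Over all 13347 genes tested, 20.9% were called higher and 28% lower. The 6 were Gria1, Gria3, Cacng2, Cacng3, Cacng8 and Cnih3. From day 7 to day 30, 4 were higher (Gria2, Gria3, Gria4 and Cacng3) and 3 lower (Cacng4, Cnih2 and Cnih3), where 20.8% of genes were called higher and 29.6% lower. The median log2 difference of the 10 genes was 0.71 for the first step and 0.16 for the second, against -0.10 and -0.08 over all genes. A call means an adjusted p under 0.05 in limma, with differences on the scale of log2(FPKM + 1), which understates changes of low values. In bulk tissue a change in the number of cells that express a gene and a change of RNA per cell cannot be told apart. Summed FPKM of 5 astrocyte markers went from 35.3 to 60.3 at day 1 to 202 to 207 at day 7 and 277 to 306 at day 30 in these libraries, and that of 5 oligodendrocyte markers from 4.70 to 5.31, to 13.6 to 29.9, to 509 to 768. At the second step 3 of the 5 astrocyte markers had a positive difference, while Aqp4 fell without overlap (47.0, 43.7 and 43.4 to 35.6, 26.4 and 31.6). The sum of 5 markers of all neurons was 649 to 1013, then 1730 to 1849, then 1332 to 1517. The part of changing cell composition in the results by age was not tested.

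**Figure D1:**
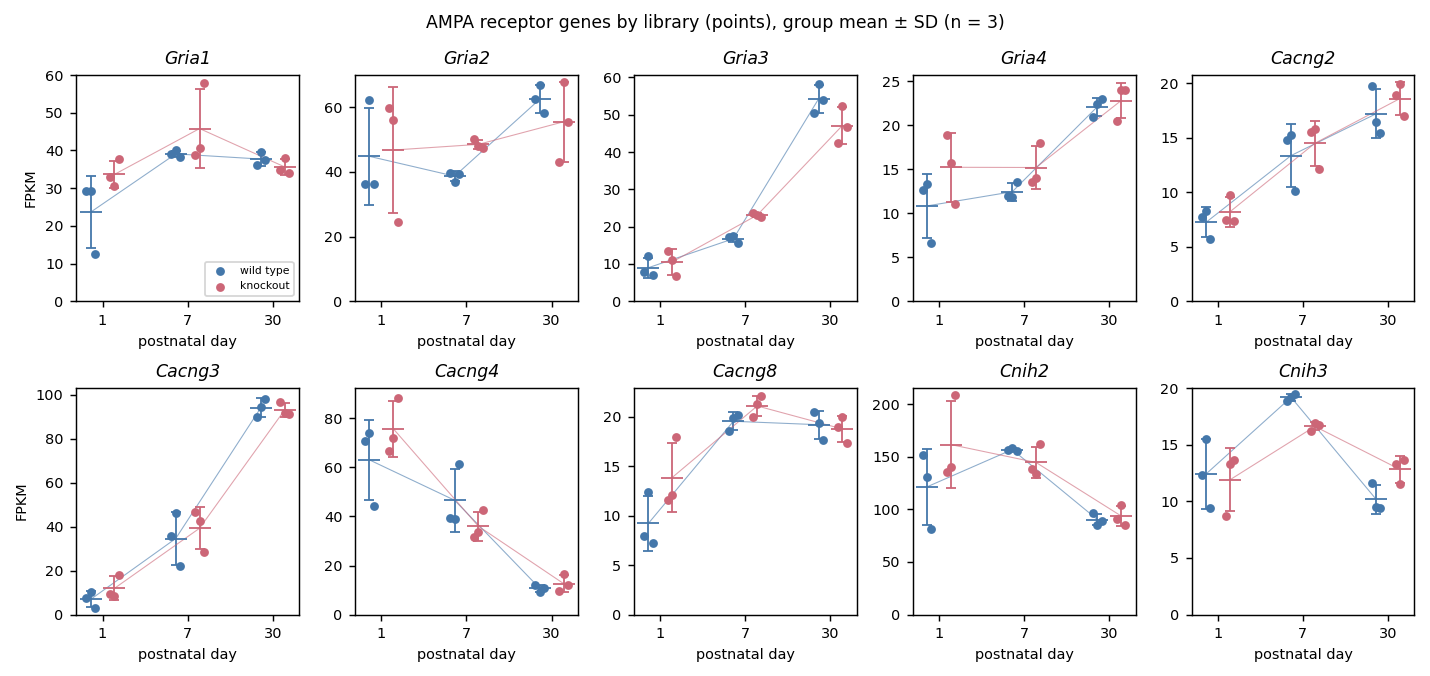
FPKM of each of the 10 genes (y axis, from 0) by postnatal day (x axis), with 1 point per library, labelled wild type in blue and knockout in red, and bars for the group mean ± SD (n = 3). Gria3 and Cacng3 are highest at day 30 and Cacng4 at day 1 in both genotypes, while the day 1 libraries are the most scattered for most genes.

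Among the receptor subunits, Gria3 rose at both steps. Its FPKM in replicates 1, 2 and 3 labelled wild type was 7.92, 12.1 and 6.95 at day 1, 17.2, 17.4 and 15.7 at day 7, and 50.6, 58.2 and 53.9 at day 30. The 3 ages did not overlap. The level was 1.87 times as high at day 7 as at day 1 (log2 difference 0.86, SE 0.193, adjusted p = 0.0016, limma) and 3.23 times as high at day 30 as at day 7 (1.63, SE 0.193, adjusted p = 4.01e-06, limma). Libraries labelled knockout held 13.6, 11.1 and 6.86 FPKM at day 1, 23.6, 23.0 and 22.6 at day 7, and 42.4, 52.3 and 46.6 at day 30. Both steps were called there too, with log2 differences of 1.11 and 0.99 (adjusted p = 0.000209 and 0.000774, limma). No alternative setting removed any of these 4 calls.

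Gria1 rose only at the first step in libraries labelled wild type. They held 29.1, 29.2 and 12.5 FPKM at day 1, 38.9, 40.0 and 38.3 at day 7, and 36.2, 39.6 and 37.4 at day 30. All day 7 values lay above all day 1 values, while days 7 and 30 overlapped. The log2 difference from day 1 to day 7 was 0.80 (SE 0.229, adjusted p = 0.00883, limma). It was 0.41 without replicate 3 of day 1 (adjusted p = 0.0187, limma), and the call was lost with only the groups compared (adjusted p = 0.0899, limma). The second step gave -0.05 (adjusted p = 0.866, limma), with a 95% interval of -0.54 to 0.43. In libraries labelled knockout the values were 32.8, 30.5 and 37.6 at day 1, 38.9, 40.7 and 57.9 at day 7, and 34.9, 38.0 and 34.0 at day 30. Day 7 replicate 3 stood highest of all 18 libraries, and neither step was called, at 0.42 and -0.33 (adjusted p = 0.144 and 0.269, limma). Without wild type day 1 replicate 3 both were called (adjusted p = 0.00839 and 0.035, limma).

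Gria2 was the subunit with the highest mean at day 1 and day 30. Wild type libraries held 36.1, 62.1 and 36.2 FPKM at day 1, 39.7, 36.9 and 39.4 at day 7, and 62.5, 66.7 and 58.1 at day 30. Replicate 2 of day 1 lay within the range of day 30, and the other day 1 libraries below all of day 7. From day 1 to day 7 the log2 difference was -0.16 (adjusted p = 0.640, limma), and from day 7 to day 30 it was 0.68 (SE 0.266, adjusted p = 0.044, limma). The latter call is fragile. It was lost without any 1 of wild type day 7 replicates 1, 2 and 3 (adjusted p = 0.0782, 0.102 and 0.0842, limma), and likewise without any 1 of wild type day 30 replicates 1, 2 and 3 (0.0892, 0.111 and 0.0679). It was also lost without any 1 of the 3 knockout day 7 libraries or without knockout day 30 replicate 3 (adjusted p up to 0.054, limma). Without a filter the adjusted p was 0.097, and after rescaling to equal totals it was 0.0965. The libraries labelled knockout held 59.7, 56.0 and 24.5, then 50.1, 48.0 and 47.4, then 43.2, 67.9 and 55.3. No step was called in them, at 0.15 and 0.17 (adjusted p = 0.664 and 0.652, limma).

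Gria4, a subunit known from fast-spiking interneurons among other cells, rose late. Its level in wild type was 12.6, 13.3 and 6.598 FPKM at day 1, 11.9, 11.8 and 13.6 at day 7, and 20.9, 22.3 and 23.0 at day 30. Days 1 and 7 overlapped, and day 30 lay above both. The log2 difference was 0.24 (adjusted p = 0.364, limma) for the first step and 0.78 (SE 0.209, adjusted p = 0.00516, limma) for the second. Libraries labelled knockout held 18.8, 15.7 and 11.05 FPKM, then 13.5, 14.03 and 17.98, then 20.4, 24.0 and 23.9. Their late step was 0.56 (adjusted p = 0.0435, limma), a call that was lost after rescaling (adjusted p = 0.175, limma) and under the replicate block (0.0529), without a filter, and in 12 of the 18 fits that left out 1 library.

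Of the TARPs, Cacng3 and Cacng4 exchanged places. Cacng3 measured 7.62, 10.1 and 2.97 FPKM in wild type at day 1, 35.7, 46.1 and 22.0 at day 7, and 89.7, 94.6 and 98.2 at day 30. The 3 ages did not overlap, and the level rose 5.02-fold by day 7 (log2 difference 2.24, SE 0.339, adjusted p = 6.59e-05, limma) and a further 2.72-fold by day 30 (1.48, SE 0.339, adjusted p = 0.00176, limma). Those labelled knockout held 9.33, 8.25 and 18.2, then 46.5, 42.7 and 28.6, then 96.7, 91.5 and 91.1, and both steps were called (1.69 and 1.25, adjusted p = 0.000681 and 0.00823, limma). Replicate 3 was the lowest of its group at day 7 in both genotypes.

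Cacng4 ran the other way. Wild type libraries held 70.8, 74.1 and 44.4 FPKM at day 1, 39.5, 38.9 and 61.5 at day 7, and 12.1, 9.14 and 10.8 at day 30. Days 1 and 7 overlapped through replicate 3 of each, and day 30 lay far below. The first step was -0.43 (SE 0.226, adjusted p = 0.131, limma), and it was called without day 1 replicate 3 (-0.66, adjusted p = 0.0167, limma), without day 7 replicate 3 (-0.64, adjusted p = 0.0346, limma), and without the mixed libraries. The second step was -2.00 (SE 0.226, adjusted p = 2.57e-06, limma), a mean ratio of 0.230. In libraries labelled knockout the values were 66.7, 72.2 and 88.5, then 31.8, 33.6 and 42.7, then 9.54, 16.5 and 11.9, with no overlap between ages. Both steps were falls there, by 1.05 and 1.46 on the log2 scale (adjusted p = 0.00116 and 0.000106, limma). The day 7 replicates 3, which were low in Cacng3, were high in Cacng4 in both genotypes. They are the libraries with raised olfactory bulb genes (wild type) and raised choroid plexus and striatal genes (knockout). Without the wild type one, the wild type steps of Cacng3 were 2.52 and 1.19 (adjusted p = 5.24e-05 and 0.0138, limma) and the second step of Cacng4 was -1.79. Without the knockout one, the knockout steps were 1.90 and 1.05 for Cacng3 (adjusted p = 0.00083 and 0.0476, limma) and -1.18 and -1.34 for Cacng4.

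The wild type group means of Cacng8 and Cacng2 stayed between 7.24 and 19.6 FPKM from day 1 to day 30. Cacng8, whose protein is abundant in hippocampus and cortex, held 7.96, 12.4 and 7.27 FPKM in wild type at day 1, 18.5, 19.9 and 20.2 at day 7, and 20.5, 19.4 and 17.7 at day 30. It rose by day 7 (log2 difference 1.04, SE 0.167, adjusted p = 0.000105, limma) and then gave -0.03 with a 95% interval of -0.38 to 0.33. Those labelled knockout held 11.6, 12.1 and 17.9, then 20.0, 21.3 and 22.1, then 19.0, 20.0 and 17.4, again with only the first step called (0.60, adjusted p = 0.00735, limma). Cacng2, known as stargazin and first studied in the cerebellum, held 7.71, 8.32 and 5.69 FPKM in wild type at day 1, 14.8, 15.3 and 10.1 at day 7, and 19.7, 16.4 and 15.5 at day 30. Its first step was called (0.80, SE 0.170, adjusted p = 0.00111, limma). The second was 0.36 (adjusted p = 0.0921, limma), and it was called under the replicate block (adjusted p = 0.0209, limma) and after quantile normalization (0.46, adjusted p = 0.0389, limma). Libraries labelled knockout held 7.48, 9.78 and 7.35 FPKM, then 15.6, 15.8 and 12.1, then 18.9, 19.9 and 17.02. Their steps were 0.75 and 0.35 (adjusted p = 0.00165 and 0.120, limma), and the second was called with only the groups compared and under the replicate block (adjusted p = 0.0476 and 0.0314, limma).

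Both cornichons were lower at day 30 than at day 7. Cnih2 held 152, 131 and 81.5 FPKM in wild type at day 1, 156, 159 and 156 at day 7, and 96.2, 85.4 and 89.3 at day 30. Day 30 lay below day 7, and day 1 spread from below the day 30 values to just under those of day 7. The log2 difference was 0.41 for the first step (SE 0.192, adjusted p = 0.0867, limma), which was called without day 1 replicate 1 (0.60, adjusted p = 0.021, limma), and -0.79 for the second (SE 0.192, adjusted p = 0.00274, limma). In libraries labelled knockout the values were 135, 140.1 and 209, then 138, 133 and 162, then 91.3, 104 and 85.5. The second step was called (-0.62, adjusted p = 0.018, limma), but not without knockout day 7 replicate 3 (adjusted p = 0.0771), day 30 replicate 1 (0.0501) or day 30 replicate 3 (0.0678).

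Cnih3 peaked at day 7. In wild type it held 12.3, 15.5 and 9.40 FPKM at day 1, 18.9, 19.2 and 19.5 at day 7, and 11.6, 9.48 and 9.42 at day 30. The day 7 libraries lay above all others. It rose by 0.62 (SE 0.165, adjusted p = 0.00577, limma) and then fell by 0.86 on the log2 scale (SE 0.165, adjusted p = 0.000439, limma). Libraries labelled knockout held 8.68, 13.3 and 13.7 FPKM, then 16.2, 16.9 and 16.7, then 13.3, 11.5 and 13.6. Their first step of 0.48 was called (adjusted p = 0.0256, limma), but not without knockout day 1 replicate 1 (0.28, adjusted p = 0.159), without any 1 of knockout day 7 replicates 1, 2 and 3 (0.0523, 0.0674 and 0.0579), or without a filter (0.0521). Their second step was -0.35 (adjusted p = 0.103, limma), and it was called with only the groups compared (0.0168), without the mixed libraries (0.0399) and without wild type day 1 replicate 3 (0.047).

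Taking libraries labelled knockout alone, 5 of the 10 genes were called higher and 1 lower from day 1 to day 7, where 19.3% and 29.4% of all genes were. From day 7 to day 30, 3 were called higher and 2 lower, against 15.9% and 22%. Gria1 from day 1 to day 7 was called in wild type and not in knockout, and Cacng4 in knockout and not in wild type. The genotype by day interaction, which tests such differences, passed for none of the 10 genes (lowest adjusted p = 0.556, for Cacng8, limma). It was under an unadjusted p of 0.05 for 0 of them, against 9.18% of all genes, and 0.015% of all genes passed after adjustment.

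**Figure D2:**
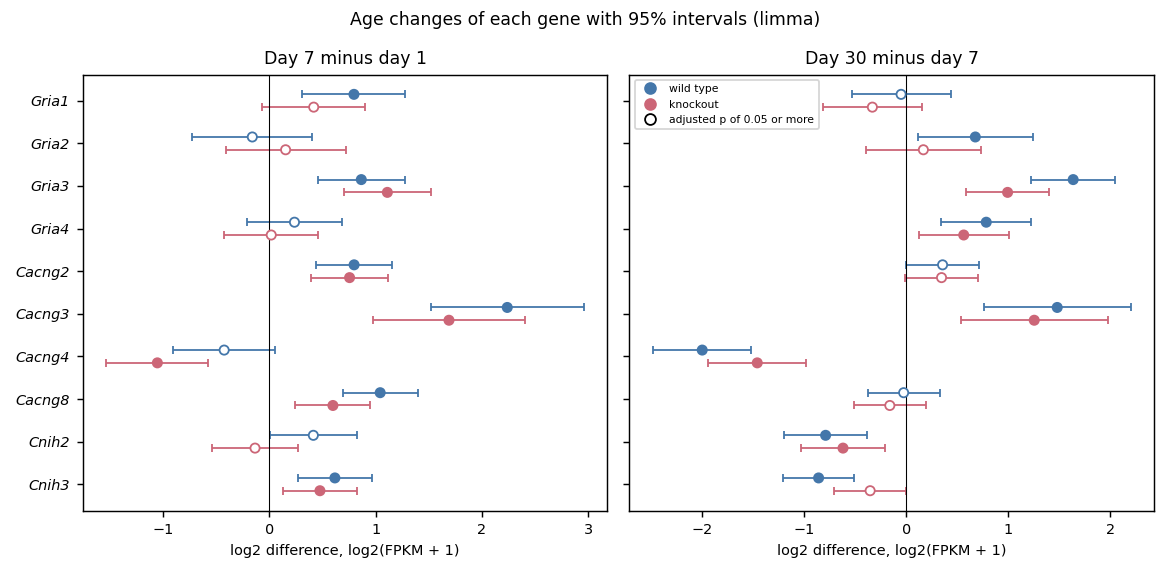
Log2 difference between ages (x axis, log2(FPKM + 1) scale) for each gene, with 95% intervals from limma, for libraries labelled wild type (blue) and knockout (red); filled points passed an adjusted p of 0.05. Cacng3 lies to the right of 0 in both steps and both genotypes, and Cacng4 lies at -2.00 in wild type and -1.46 in knockout from day 7 to day 30.

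Per length, Cnih2 had the highest level of the 10 genes at day 1 and day 7 in both genotypes, with no overlap with the next gene. Its mean at day 7 was 157 ± 1.64 FPKM in wild type and 145 ± 15.1 in knockout (SD, n = 3). The next gene in wild type at day 7 was Cacng4 (46.6 ± 12.9), whose range overlapped that of Gria1, which overlapped Gria2, which overlapped Cacng3. At day 30 Cacng3 and Cnih2 stood together at the top, at 94.2 ± 4.25 and 90.3 ± 5.47 FPKM in wild type and 93.1 ± 3.09 and 93.7 ± 9.61 in knockout, and their ranges overlapped in both. Gria2 followed them without overlap with the gene above, at 62.4 ± 4.30 and 55.5 ± 12.4 FPKM, and overlapped Gria3 below it. Cacng3 was the lowest of the 10 in wild type at day 1 (6.89 ± 3.61), where all genes from Gria1 downward overlapped their neighbours. The order at day 30 ended with Cacng4 and Cnih3 in wild type (10.7 ± 1.51 and 10.2 ± 1.25) and the same pair in knockout, overlapping in both.

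Shares within a family do not depend on the scale of a library. Of the summed FPKM of Gria1 to Gria4, the Gria2 share in wild type was 42.1, 53.2 and 58.1% at day 1, 36.8, 34.8 and 36.8% at day 7 and 36.7, 35.7 and 33.7% at day 30. The Gria3 share was 9.23, 10.4 and 11.2%, then 16.0, 16.4 and 14.7%, then 29.7, 31.1 and 31.3%. Gria1 went from a mean of 26.4% to 36.6% and then 21.4%, while Gria4 stayed between means of 11.6% and 12.5%. At the first step, the Gria1, Gria2 and Gria3 shares did not overlap between ages (exact two-sided permutation p = 0.1 each, n = 3 per group, the smallest that 3 against 3 libraries allow). At the second step this held for Gria1 and Gria3 (exact p = 0.1) and not for Gria2 (exact p = 0.5). The sum of the 4 subunits had a mean of 88.2 ± 27.3 FPKM at day 1, 107 ± 0.795 at day 7 and 176 ± 9.07 at day 30 in wild type, and 106 ± 23.3, 133 ± 11.5 and 161 ± 20.7 in knockout (SD, n = 3).

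For the TARPs, shares were taken of the summed FPKM of Cacng2, Cacng3, Cacng4 and Cacng8. The related genes Cacng5 and Cacng7 were not in this sum. Cacng7 held 38.6, 31.1 and 18.9 FPKM in wild type at day 1 and 54.1, 51.0 and 55.0 at day 30. Shares of a sum that included it would be lower. The Cacng4 share in wild type was 75.2, 70.6 and 73.6% at day 1, 36.4, 32.4 and 54.1% at day 7, and 8.54, 6.55 and 7.63% at day 30. The Cacng3 share was 8.10, 9.62 and 4.92%, then 32.9, 38.4 and 19.3%, then 63.1, 67.8 and 69.0%. Neither gene's shares overlapped between ages (exact permutation p = 0.1 for each step, n = 3 per group). In libraries labelled knockout the mean Cacng4 share was 69.3, 32.7 and 8.81%, and the mean Cacng3 share 10.6, 35.2 and 65.1%. The shares of Cacng2 (means of 8.52 to 12.2% in wild type) and Cacng8 (10.8 to 17.1%) moved less. Of the 2 cornichons, Cnih2 made up a mean of 87.9 to 93.1% of the sum in every group. The TARP and cornichon shares were chosen after their values had been seen.

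**Figure D3:**
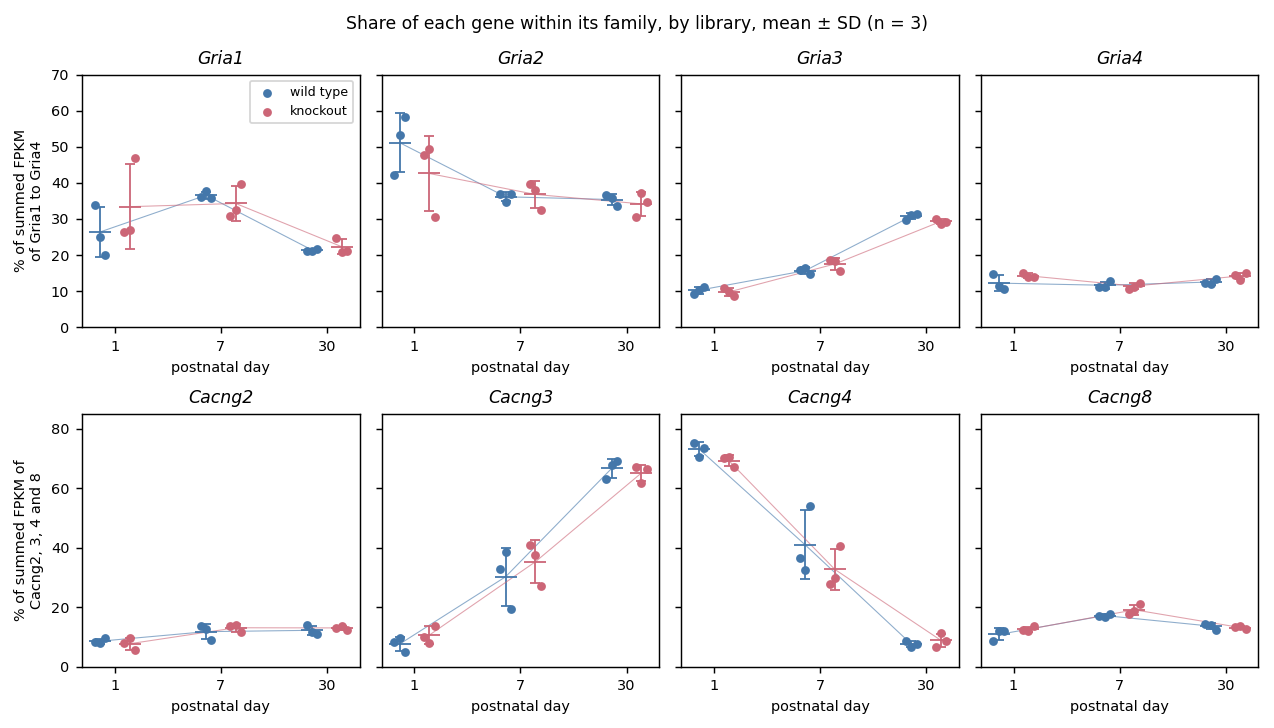
Share of each gene in the summed FPKM of Gria1 to Gria4, or of Cacng2, Cacng3, Cacng4 and Cacng8 (y axis, percent, from 0) by postnatal day (x axis), with 1 point per library, wild type in blue and knockout in red, and bars for mean ± SD (n = 3). The Cacng4 share in wild type goes from a mean of 73.1% at day 1 to 7.57% at day 30, and the Cacng3 share from 7.55% to 66.6%.

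The genes whose log2 values followed each member most closely over the 18 libraries were found by Pearson correlation, as a description: the libraries share age steps, and values rank by age for many genes. Cacng4 had the closest companions, Matcap1, Tbc1d13 and Tnc, at 0.992 each. Cacng3 went with Pfkm (0.991), Got1 (0.989) and Tspan7 (0.986), and Gria3 with Kcnc2 (0.985), Col19a1 (0.984) and Unc80 (0.983). For Cacng2 the closest were Lrrc4, Cacna1a and Trhde (0.971 to 0.972), for Cacng8 Pnma8c (0.965), Mapk8ip1 (0.958) and Gpr162 (0.950), and for Cnih2 Palm (0.961), Dpysl4 (0.955) and Zfp580 (0.954). Gria4 lay closest to Gabra2 (0.958), Prkar1a (0.933) and Pnma8a (0.930), and Gria1 to Grid1 (0.943), Sez6l (0.930) and Mapk8ip2 (0.924). The loosest were Cnih3, with Noct (0.919), Nrxn2 (0.891) and Doc2a (0.885), and Gria2, with Far1 (0.888), Ago3 (0.886) and Zfp109 (0.873). Between members, the highest value was 0.944 for Cacng2 with Cacng3, and the lowest -0.929 for Gria3 with Cacng4.

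At day 1 the comparison of genotypes called none of the 10 genes, where 0.517% of all genes were called (69, of which 48 were higher and 21 lower in libraries labelled knockout, or 40 and 9 after quantile normalization). The difference was positive for 9 of 10 genes, with a median of 0.36 against 0.02 over all genes. It was under an unadjusted p of 0.05 for 5 of them, Gria1, Gria4, Cacng3, Cacng8 and Cnih2, against 21.7% of all genes. Only Gria1 did not overlap between genotypes, at 30.5 to 37.6 FPKM in libraries labelled knockout and 12.5 to 29.2 in wild type, where 14.8% of all genes did not overlap. Its log2 difference was 0.58 (95% interval 0.10 to 1.06, adjusted p = 0.169, limma). Cacng8 had the lowest adjusted p, with a difference of 0.55 (95% interval 0.20 to 0.90, adjusted p = 0.102, limma). The interval of Gria2 ran from -0.56 to 0.57, so differences within that range, in either direction, were not excluded by these libraries.

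Single libraries carried much of this. Wild type day 1 replicate 3, the one with salivary gland transcripts, was the lowest of its group in 9 of the 10 genes, Gria2 excepted. Without it the differences were 0.19 for Gria1, 0.19 for Gria4, 0.32 for Cacng3, 0.41 for Cacng8 and 0.17 for Cnih2 (adjusted p = 0.164 to 0.557, limma), and 224 genes in all were called. Without wild type day 1 replicate 2, in which Xist stood at 157 FPKM, Gria1 (0.77, adjusted p = 0.0492) and Cacng8 (0.76, adjusted p = 0.00867, limma) were called, beside 1531 genes in all. Without knockout day 1 replicate 3 there were 10 calls in all and 0 among the members. That library was the highest of the 18 in Cnih2 and the lowest of its group in Gria2, Gria3 and Gria4. Marker sums differed as well, not all in one direction. For 5 markers of all neurons (5 of 5 in the table, none at 0) the sum was 649 to 1013 FPKM in wild type and 1061 to 1146 in knockout, and for 5 astrocyte markers 35.3 to 60.3 and 71.9 to 81.3. For 5 markers of oligodendrocyte precursors it was 38.1 to 46.4 and 54.1 to 60.3, and for 5 oligodendrocyte markers 4.70 to 5.31 and 6.51 to 15.2. All 4 endothelial markers were lower in knockout (median log2 difference -0.53, 2 with an unadjusted p under 0.05, limma). Their sums overlapped, however, at 41.1 to 103 in wild type and 40.5 to 53.8 in knockout. The 103 belonged to wild type day 1 replicate 3, and the other wild type libraries held 41.1 and 48.1. Microglia (10.4 to 22.2 and 11.6 to 16.6, median -0.09), interneurons (41.1 to 103 and 90.3 to 219) and the 4 excitatory neuron markers (257 to 432 and 331 to 435) overlapped too. Of these 4, 3 had a positive difference. Slc17a7 was called higher, without overlap (20.0, 28.5 and 48.3 FPKM in knockout, 10.2, 16.3 and 11.2 in wild type). Of all neurons, astrocytes and oligodendrocyte precursors, 1 marker each was called higher and none lower. Their part in the day 1 differences was not tested.

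At day 7 none of the 10 genes was called over all 18 libraries, where 0.00749% of genes were (1 of 13347). Differences ran from -0.34 for Cacng4 to 0.44 for Gria3, with a median of 0.16 against -0.01 over all genes. Gria2 was 50.1, 48.0 and 47.4 FPKM in libraries labelled knockout and 39.7, 36.9 and 39.4 in wild type, and Gria3 was 23.6, 23.0 and 22.6 against 17.2, 17.4 and 15.7. Both were higher without overlap, and Cnih3 was lower without overlap (16.2, 16.9 and 16.7 against 18.9, 19.2 and 19.5), making 3 of 10 genes where 20.6% of all genes did not overlap. In the fit over all libraries the log2 difference was 0.32 for Gria2 (SE 0.266, unadjusted p = 0.247, limma), 0.44 for Gria3 (SE 0.193, unadjusted p = 0.0363, limma) and -0.20 for Cnih3 (SE 0.165, unadjusted p = 0.252, limma), each with an adjusted p of 1.00. Of all genes, 3.52% were under an unadjusted p of 0.05, as was 1 of the 10.

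Same-numbered libraries deviated together at day 7, so the pairs were also fitted as blocks within the 6 day 7 libraries, a choice made after seeing the data. In that fit Gria2 (0.32, SE 0.0473, adjusted p = 0.0326, limma) and Gria3 (0.44, SE 0.0527, adjusted p = 0.0242, limma) were called higher in libraries labelled knockout. Each was higher in 3 of 3 pairs, which any pairing would give, because the genotypes did not overlap. Gria2 and Gria3 were 2 of 10 genes, where 3.75% of all genes (500) were called, 1.45% higher and 2.3% lower. Cacng4 (-0.34, adjusted p = 0.0519), Gria4 (0.26, adjusted p = 0.0766) and Cnih3 (-0.20, adjusted p = 0.0859, limma) came next, and the other 5 members had an adjusted p of 0.260 to 0.345. Without the block the same 6 libraries gave an adjusted p of 0.204 for Gria2 and 0.125 for Gria3, and 9 calls in all. With all 18 libraries and the block, 0 members and 1 gene were called. As shares of the 4 subunits, Gria2 (36.8% in knockout and 36.1% in wild type) and Gria3 (17.5% and 15.7%) overlapped between genotypes (exact permutation p = 0.8 and 0.3, n = 3 per group).

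Other markers moved with genotype at day 7. The sum of 5 oligodendrocyte markers was 36.8 to 57.9 FPKM in libraries labelled knockout and 13.6 to 29.9 in wild type, and that of 5 microglia markers 48.9 to 72.4 and 33.0 to 46.3, with none of these markers at 0. Astrocyte markers summed to 214 to 218 in knockout and 202 to 207 in wild type. Of these 5 markers, 4 had a positive log2 difference, while Aldh1l1 was lower without overlap (15.9, 15.6 and 17.5 against 18.9, 19.5 and 22.4). Oligodendrocyte precursor markers summed to 88.9 to 94.5 and 76.5 to 86.4. The endothelial sum was lower in knockout, at 51.4 to 57.5 against 59.9 to 63.8, but 2 of its 4 markers had a positive difference (median -0.06). Only Cldn5 was lower without overlap (36.7, 33.3 and 32.7 against 39.6, 40.5 and 43.4). The 9 salivary gland genes summed to 4.07 to 5.81 FPKM in knockout and 14.5 to 16.4 in wild type. The sums of 5 hippocampal markers were higher as well, at 14.4 to 24.1 against 11.5 to 12.6 FPKM, and the highest of these, knockout day 7 replicate 3, was also the highest of the 18 libraries in Gria1 and the one with choroid plexus and striatal genes. Sums of the 4 excitatory neuron markers overlapped, at 313 to 331 and 268 to 321, as did those of all neurons (1713 to 1763 and 1730 to 1849) and interneurons (138 to 220.0 and 129 to 153). Single markers did not all overlap. Only 1 excitatory marker, Slc17a7, had a positive difference, without overlap (219, 238 and 210 against 181, 197 and 167). It was called in the day 7 block fit (0.29, adjusted p = 0.0300, limma). Among the 5 markers of all neurons, 3 differences were positive. Elavl4 was higher without overlap, and Stmn2 lower (1104, 1118 and 1162 against 1238, 1277 and 1308). Their part in the values of Gria2 and Gria3 was not tested.

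At day 30 no member was called, where 0.0225% of genes were (3 of 13347). Differences ran from -0.20 for Gria3 to 0.31 for Cnih3, the median was 0.01 against 0.02 over all genes, and all 10 genes overlapped between genotypes, where 14.9% of all genes did not. Under an unadjusted p of 0.05 were 0 of the 10 and 3.59% of all genes. The widest 95% intervals were those of Cacng3 (-0.73 to 0.70) and Gria2 (-0.75 to 0.37), and the narrowest was that of Cnih3 (-0.04 to 0.66). Averaged over the 3 days, the 10 differences were all positive, from 0.02 for Cnih3 to 0.32 for Cacng3, with adjusted p of 0.488 to 0.957 (limma). None was called, where 0.0974% of all genes were, and 2 (Gria4 and Cacng8) were under an unadjusted p of 0.05, against 10.1% of all genes.

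**Figure D4:**
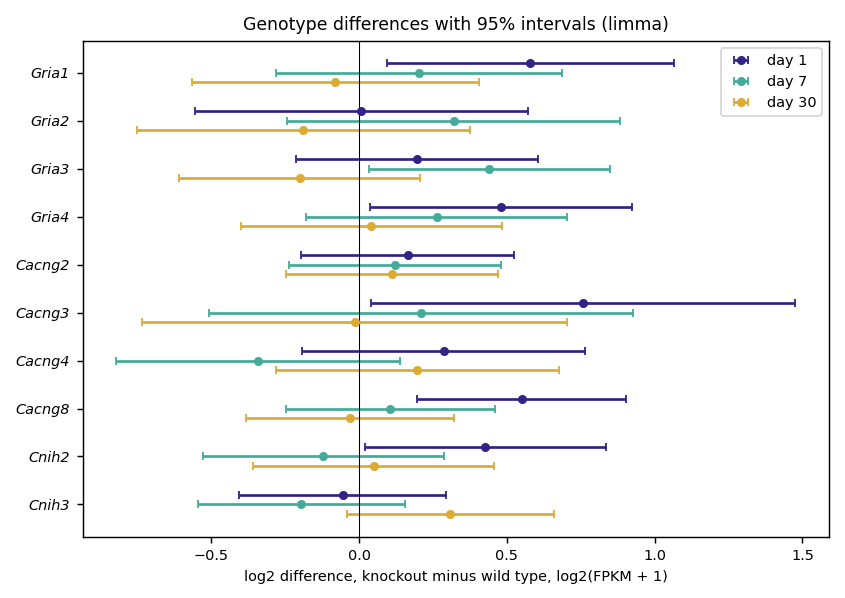
Log2 difference between libraries labelled knockout and wild type (x axis, log2(FPKM + 1) scale) for each gene at day 1, 7 and 30, with 95% intervals from limma over 18 libraries. At day 30 every interval includes 0, and the day 1 interval of Cacng3, the gene with the largest SE, runs from 0.04 to 1.48.

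Other genes of the receptor's pathway were taken from 4 lists of 32 genes, of which 31 were tested. In libraries labelled wild type, 19 were higher and 1 lower at day 7 than at day 1, where 20.9% and 28% of all genes were. At day 30, 19 were higher and 5 lower than at day 7, against 20.8% and 29.6%. In knockout the counts were 21 and 1 for the first step, against 19.3% and 29.4%, then 12 and 4, against 15.9% and 22%. The median log2 difference of the 31 in wild type was 0.77 and then 0.53, against -0.10 and -0.08 over all genes. No genotype comparison called any of them at day 1, 7 or 30 or averaged over days (lowest adjusted p = 0.0896, at day 1, limma), where 0.517%, 0.00749%, 0.0225% and 0.0974% of all genes were called.

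Among other auxiliary subunits, Prrt1 and Syndig1 showed the largest rises by day 7 in wild type, from 7.15 to 28.6 FPKM (log2 difference 1.87, SE 0.231, adjusted p = 9.87e-06, limma) and from 6.69 to 24.5 (1.72, SE 0.208, adjusted p = 8.06e-06, limma). From day 7 to day 30, Gsg1l rose from 8.27 to 28.6 FPKM (1.72) and Cacng7, a further TARP-related gene, from 36.9 to 53.3 (0.53). Over the same step Shisa6 fell from 11.5 to 1.33 FPKM (-2.41, SE 0.193, adjusted p = 7.07e-08, limma) and Cacng5 from 3.92 to 0.833 (-1.42). Frrs1l, which takes part in building receptors in the endoplasmic reticulum, rose at both steps, from 12.1 to 26.3 and 48.7 FPKM (1.07 and 0.88). Abhd6, a lipid hydrolase that binds Gria subunits, rose from 0.877 to 2.42 FPKM by day 7 (0.86). Adarb1, the enzyme that edits Gria2 RNA, rose from 5.92 to 9.96 by day 30 (0.67, SE 0.158, adjusted p = 0.00222, limma).

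Scaffold and trafficking genes held the largest changes. Camk2a, the kinase that phosphorylates Gria1 and TARPs, went from 9.83 to 170 and 973 FPKM (4.09, SE 0.346, adjusted p = 2.92e-07, and 2.56, SE 0.346, adjusted p = 1.61e-05, limma). Nsf, an ATPase that binds Gria2, rose from 25.1 to 106 by day 7 (2.04), and Arc, which promotes removal of receptors from the surface, from 2.13 to 32.4 by day 30 (3.41). The scaffolds Grip1 and Grip2, which bind the tails of Gria2 and Gria3, moved down. Grip2 fell at both steps, from 9.16 to 5.79 and 3.05 FPKM (-0.56 and -0.75), and Grip1 from 1.87 to 0.393 by day 30 (-1.04). Of the secreted pentraxins and their receptor, which gather receptors from outside the cell, Nptx1 rose from 2.81 to 4.71 and 41.8 FPKM (0.60 and 2.90), Nptx2 from 4.20 to 15.1 by day 30 (1.63), and Nptxr from 0.427 to 1.01 by day 7 (0.49).

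**Figure D5:**
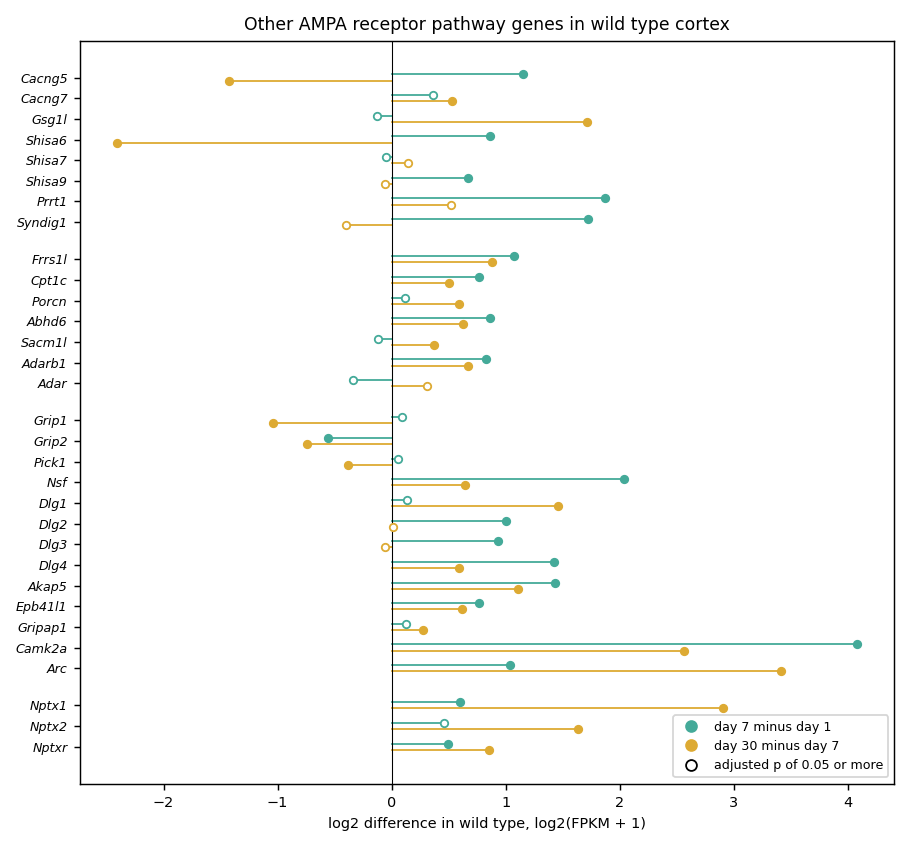
Log2 difference between ages in libraries labelled wild type (x axis, log2(FPKM + 1) scale) for the 31 tested pathway genes, grouped by list from top to bottom as other auxiliary subunits, assembly and editing, scaffolds and trafficking, and extracellular clustering; open points had an adjusted p of 0.05 or more. Camk2a lies farthest to the right from day 1 to day 7 (4.09) and Shisa6 farthest to the left from day 7 to day 30 (-2.41).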

How the data were processed

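The authors deposited 1 table of FPKM per gene and library, without read counts. Per the submitters' processing notes the tools were RSEM 1.3.1, Bowtie2 and DESeq2 1.4.5 with build GRCm39, and no source used here gives the role of each. Because FPKM is relative to a library's total, abundant foreign transcripts lower its other genes. Absolute depth is unknown, and relative depth was read from the steps of the lowest values.

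FPKM was transformed as log2(FPKM + 1), and 13347 of 28852 genes with at least 1 FPKM in at least 3 of 18 libraries were tested, all 10 members among them. Group means were fitted with limma 3.58.1 in R 4.3.3 with a mean-variance trend, two-sided, and adjusted over all tested genes by Benjamini-Hochberg at 0.05. The script was tested on simulated data. Family shares, 3 libraries a group, were tested by exact two-sided permutation, whose smallest p is 0.1. Named genes were the members, the 2 largest rises and 2 largest falls past the threshold of each pathway list per wild type age step, pathway genes past the threshold in a genotype comparison (there were none), the 3 most like genes of each member, and Alg13. A marker gene and some promoters are not reported here. Members, lists and tests were chosen with earlier results of these data known.

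The labels number the replicates without saying what a number shares. Deviations from group means of same-numbered libraries correlated at 0.333, 0.337 and 0.530 at day 7, at 0.0252 to 0.131 at day 1 and at -0.336 to -0.0414 at day 30. The numbers were therefore taken as pairs at day 7, on the data and not on the labels. Knockout replicate 2 correlated best with wild type replicate 1 there (0.393), so replicates 1 and 2 are not told apart. Within groups, libraries correlated across genes at 0.893 or more.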

Additional observations from a re-analysis of the deposited data

How the results depend on the processing

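Calls by age kept their direction under every setting run, and those lost under some are named above. All-gene calls by genotype moved more. At day 1 the 69 calls became 27 after rescaling, 0 with only the groups compared, 39 under the replicate block and 16 without the mixed libraries, and 10 to 1531 with 1 library left out (members, 0 to 2). At day 7 the 1 call became 6 without a filter, 2 after rescaling, 9 with only the groups compared, 2 without the mixed libraries, and 500, with 2 members, under the block within day 7, and 0 to 2 with 1 library left out. At day 30, 3 became 28 without a filter and 0 to 16 with 1 left out; for the mean over days, 13 became 8 under the block and 6 to 57; for the interaction, 2 became 8 without a filter, 1 without the trend, 0 with a pseudocount of 0.1, a filter of 5 FPKM, rescaling, the block or no mixed libraries, and 0 to 4. The block changed no member call by genotype in the fit over all libraries.

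Under quantile normalization, the log2 difference changed sign for Gria2 (-0.0766) at day 1, Gria4 (-0.000835) and Cnih2 (-0.0367) at day 30 and Gria1 (0.13) and Cacng8 (0.0927) in wild type day 30 against day 7. Under rescaling, the log2 difference changed sign for Gria4 (-0.00404) at day 30. Under omission of the mixed libraries, the log2 difference changed sign for Cacng3 (-0.000101), Cacng4 (-0.0608) and Cnih2 (-0.0343) at day 1, Cacng4 (-0.10), Cnih2 (-0.0487) and Cnih3 (-0.0882) over days, Gria4 (-0.0558) in wild type day 7 against day 1 and Gria2 (-0.25), Gria4 (-0.18) and Cnih2 (0.0645) in knockout day 7 against day 1. Measured as the log2 ratio of Gria2 to Gria1, the change in wild type from day 7 to day 30 was 0.73, opposite in sign to the Gria2 share. With 1 library left out, these uncalled log2 differences spanned 0: Gria2 (-0.22 to 0.41) and Cnih3 (-0.23 to 0.14) at day 1, Cacng2 (-0.0559 to 0.24) and Cacng3 (-0.0757 to 0.44) at day 7, Cacng8 (-0.0857 to 0.0213), Cacng3 (-0.0493 to 0.0151), Cacng4 (-6.59e-05 to 0.37) and Cnih2 (-0.0301 to 0.11) at day 30, Cacng4 (-0.0301 to 0.12), Cnih3 (-0.0382 to 0.0833) and Gria2 (-0.0289 to 0.18) over days, Gria2 (-0.29 to 0.0936) and Gria4 (-0.0558 to 0.40) in wild type day 7 against day 1, Cacng8 (-0.0721 to 0.0287) in wild type day 30 against day 7 and Gria2 (-0.25 to 0.38), Gria4 (-0.18 to 0.18) and Cnih2 (-0.25 to 0.0645) in knockout day 7 against day 1. With 1 library left out, these uncalled differences of shares, in percentage points, spanned 0: Gria3 share (-1.05 to 0.10) at day 1, Gria2 share (-0.82 to 2.80) and Gria4 share (-0.67 to 0.33) at day 7, Gria1 share (-0.31 to 1.63) and Gria2 share (-2.76 to 0.55) at day 30, Gria4 share (-1.42 to 0.64) in wild type day 7 against day 1 and Gria2 share (-1.45 to 0.0667) in wild type day 30 against day 7. The cause of these changes was not tested, and no called difference of a member changed sign.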
